A study of Mus musculus with 21 samples.

Results

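The genes described here are 45 type I interferon-stimulated genes, the transcripts that rise when a cell senses interferon. They were the rows of the count table whose gene name was on a list of such genes. All 45 were among the 57180 genes of the table, and all 45 passed the low-count filter, so that each was tested along with the 18867 genes tested in all. RNA-seq was done on 21 libraries of cells sorted from mouse brain. The cells were transplanted microglia (MG) or transplanted monocytes, labelled monocyte-derived microglia (MLC), both of the genotype Osb-GFP, or the endogenous microglia of mice without a transplant (NoTx), of the genotype CX3CR1-CreER+/-; CSF1R fl/fl. In that genotype a Cre recombinase that needs tamoxifen is made under the control of Cx3cr1, and both Csf1r alleles can be cut by it. The genotype of the hosts that received the transplants, the ages and any tamoxifen treatment are not given in the sources used here. Mice given saline yielded 3 MG, 3 MLC and 2 NoTx libraries. Mice that had seized after kainic acid, an agonist of glutamate receptors, 5 days earlier yielded 4 MG, 6 MLC and 3 NoTx libraries. Genotype and transplantation cannot be told apart in any comparison with NoTx. The labels put every seizure library in batch 1 and every saline one in batch 2, so that seizure and batch cannot be told apart.

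Type I interferons, such as interferon beta, bind the receptor chains Ifnar1 and Ifnar2, whose kinases Jak1 and Tyk2 phosphorylate transcription factors such as Stat2. With Irf9 these form a complex that enters the nucleus and binds a motif in the promoters of interferon-stimulated genes. Their products sense foreign RNA and DNA, block steps of viral replication, and feed back on the pathway itself. In the brain, microglia and border macrophages express part of this programme without infection, and more of it in ageing, injury and viral disease.

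The motif bound by that complex has a core of GAAA, then any 2 bases, then GAAA. It was searched on both strands in the 250 bases before the start of each gene in RefSeq promoters of GRCm38.p6, an older build than the GRCm39 of the counts. Matches that overlap each other were counted separately. Of the 45 members, 34 had a promoter there. A match was present in 13 of these 34 (38.2%), against 936 of 27025 genes (3.46%). The 6 promoters below are those with a match whose genes had the smallest p values in MLC against MG after seizure. Each is shown as the 200 bases that end just before the start, read in the direction of the gene, with the matches in capitals. The windows are chr8:71537473-71537672 on the minus strand for Bst2, chr19:34583329-34583528 on the plus strand for Ifit3, chr19:34607757-34607956 on the plus strand for Ifit3b, chr5:120777660-120777859 on the minus strand for Oas3, chr12:26456453-26456652 on the minus strand for Rsad2, and chr5:120907526-120907725 on the minus strand for Oas1a.
Bst2: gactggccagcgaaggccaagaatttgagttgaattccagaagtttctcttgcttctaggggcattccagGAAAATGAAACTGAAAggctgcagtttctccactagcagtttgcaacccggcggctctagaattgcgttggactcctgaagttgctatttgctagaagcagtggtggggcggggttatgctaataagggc
Ifit3: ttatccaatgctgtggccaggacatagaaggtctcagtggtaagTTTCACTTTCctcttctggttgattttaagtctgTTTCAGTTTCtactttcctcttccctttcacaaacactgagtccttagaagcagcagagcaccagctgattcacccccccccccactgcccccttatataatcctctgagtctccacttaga
Ifit3b: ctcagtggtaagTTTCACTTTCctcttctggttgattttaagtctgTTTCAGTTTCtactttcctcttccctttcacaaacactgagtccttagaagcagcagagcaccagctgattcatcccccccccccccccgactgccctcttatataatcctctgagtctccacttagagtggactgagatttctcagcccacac
Oas3: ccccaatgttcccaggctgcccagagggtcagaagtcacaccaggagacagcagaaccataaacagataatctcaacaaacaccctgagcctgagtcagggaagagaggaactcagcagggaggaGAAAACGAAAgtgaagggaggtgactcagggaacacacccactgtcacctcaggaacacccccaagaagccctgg
Rsad2: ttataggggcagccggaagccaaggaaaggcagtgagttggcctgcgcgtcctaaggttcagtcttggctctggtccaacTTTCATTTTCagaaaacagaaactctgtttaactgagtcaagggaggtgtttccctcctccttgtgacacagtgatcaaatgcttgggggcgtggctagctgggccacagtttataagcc
Oas1a: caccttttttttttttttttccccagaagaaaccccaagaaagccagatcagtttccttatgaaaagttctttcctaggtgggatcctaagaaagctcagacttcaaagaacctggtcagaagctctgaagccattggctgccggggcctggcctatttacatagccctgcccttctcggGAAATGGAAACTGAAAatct
In Bst2 there were 2 matches that overlapped, beginning 130 and 124 bases before the start, and in Oas1a 2 that overlapped, beginning 20 and 14 bases before it. Ifit3 and Ifit3b held the same pair of matches on the opposite strand, at 156 and 122 bases and at 188 and 154 bases. Isg15, not shown, held 3. Of the 9 members called in that comparison, Ifi44, Oasl1 and Ifit2 had no match to these letters in the window, which says nothing of the factor. Dhx58, Ifi27l2a, Mx1, Mx2, Oas2, Parp14, Parp9, Rtp4, Tor3a, Usp18 and Zbp1 were not in the promoter table.

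Totals per library ran from 36.5 M to 50.3 M (mega) counts after saline and from 6.57 M to 73.8 M counts after seizure. Levels are given as CPM, counts scaled to the library's total and composition. The microglia markers summed to 54000 to 88100 CPM in the MG and NoTx libraries and to 17500 to 39400 in MLC, and the 8 markers of bone-marrow-derived brain macrophages to 9220 to 70400 CPM in MLC against at most 1030 elsewhere. Sall1, which defines microglia, was at most 10 CPM in MLC, so those libraries lacked the defining marker of their label. Neutrophil markers reached 1660 CPM in NoTx after saline and 820 in NoTx after seizure, but at most 18.5 in any transplanted group. Of the 9 neutrophil markers, Mmp9 and Ly6g were at 0 in every MG and MLC seizure library. Xist, made by the inactive X chromosome in female cells, was above 50 CPM in all 7 MG libraries and in 0 of 9 MLC libraries. The sum of 4 Y-linked genes exceeded it in 6 of the 7 MG and in all 9 MLC libraries, so that in MLC against MG the sex of the cells and their origin cannot be told apart. In NoTx, Xist was above 50 CPM in 0 of 2 saline and 2 of 3 seizure libraries, so that sex also differed in MG against NoTx after saline and in part in the other comparisons with NoTx after seizure and in seizure against saline in NoTx. The names of MLC seizure replicates 3 and 6 repeat the codes of replicates 2 and 4 with 11b added. Whether they share animals is not given. The 3 seizure libraries MG replicates 3 and 4 and MLC replicate 5 had few genes for their depth in an earlier analysis of these data and are called poor in genes below.

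Summed over the 45 members, the interferon-stimulated genes stood at 3900 to 5258 CPM in MLC after saline and 3191 to 6000 CPM in MLC after seizure. MG held 2166 to 2582 CPM after saline, and NoTx held 1542 to 1662 CPM after saline and 1448 to 1908 CPM after seizure. After saline every MLC library lay above every MG and NoTx library. In MG after seizure the sums were 2756, 1609, 3232 and 1575 CPM, and replicate 3 lay above the lowest MLC library. Of the 45 members, 26 had their highest group mean in MLC after saline, 17 in MLC after seizure and 2 in MG after seizure. Variation within groups differed: the median coefficient of variation of a member was 25.8% in MG, 39.2% in MLC and 32.4% in NoTx after saline, and 66.8%, 42.0% and 70.1% after seizure. Within MG after seizure, replicate 3 held the highest value of 25 members and replicate 1 of 15, against 0 for replicate 2 and 5 for replicate 4. The 15 include Oasl1, which was at 0 in every library of the group.

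**Figure D1:**
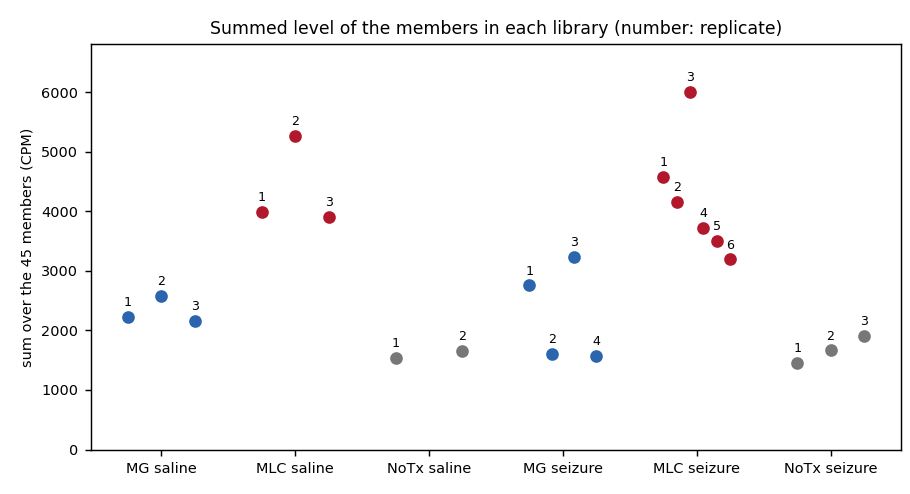
Summed level of the 45 interferon-stimulated genes (CPM, vertical axis) in each of 21 libraries, grouped by kind of cells and treatment, with replicate numbers beside the points. The 3 MLC saline libraries lay above all other saline libraries, and MG seizure replicates 1 and 3 lay well above replicates 2 and 4.

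**Figure D2:**
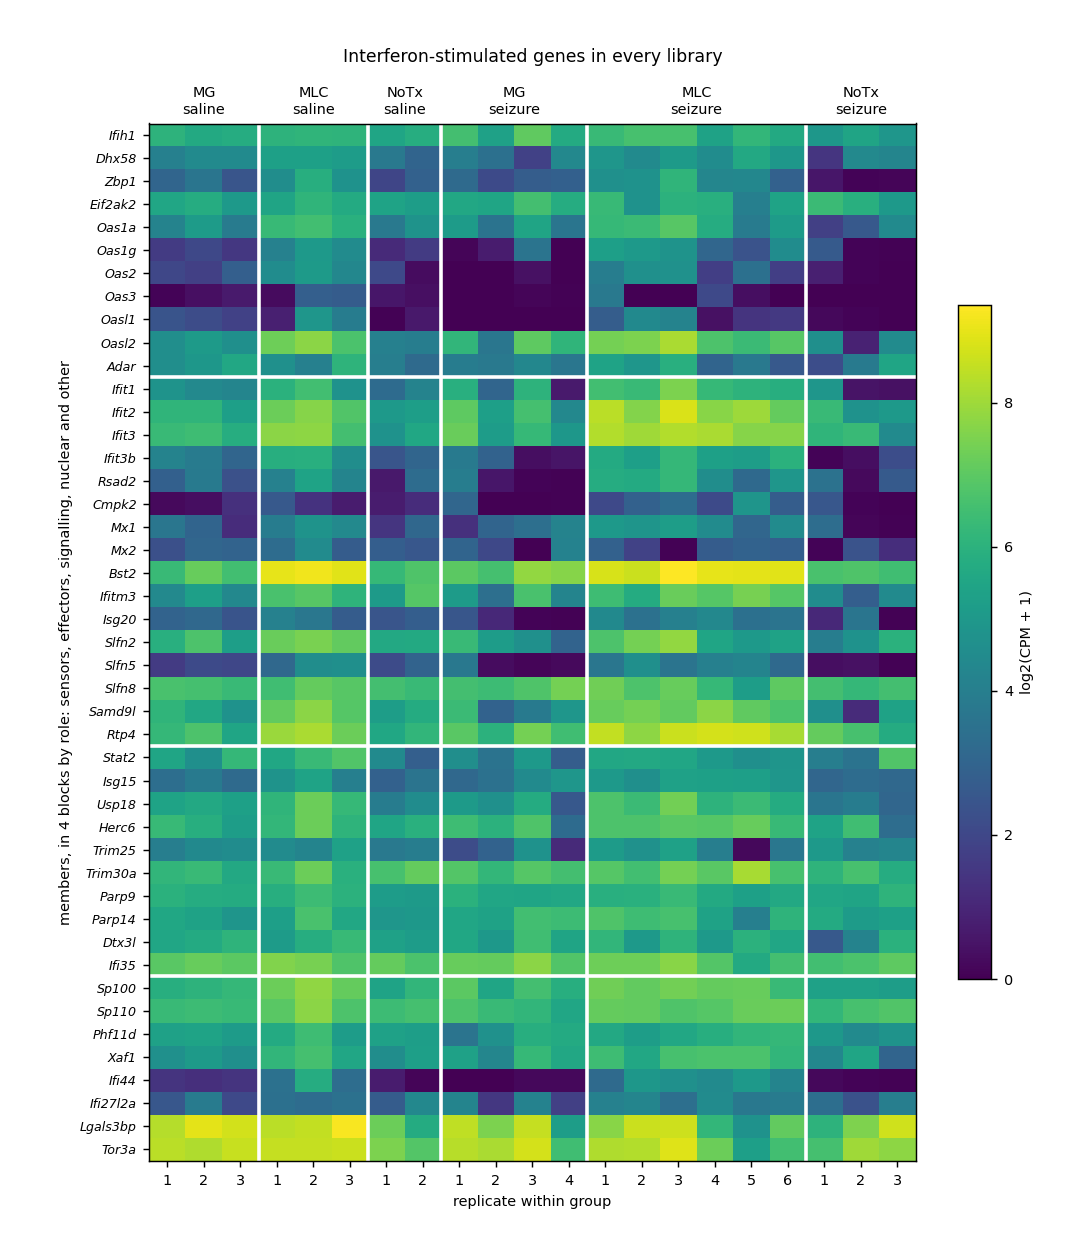
Level of each member (rows, in 4 blocks by role) in each library (columns), as log2(CPM + 1). Bst2, Rtp4, Ifit2 and Ifit3 were bright across MLC columns, while Oas2, Oasl1, Ifi44 and Oas3 were near 0 in MG and NoTx after seizure.

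Per kilobase of exon (GENCODE vM21 lengths, all 45 matched by gene ID), Bst2 had the highest level in MLC after seizure, at 548 ± 99.1 CPM per kb (SD, n = 6). Ifitm3 followed at 171 ± 61.8, Rtp4 at 163 ± 39.5 and Ifit3 at 149 ± 27.1 CPM per kb, and these 3 did not differ beyond their spread. The lowest were Cmpk2 at 2.24 ± 2.30, Mx2 at 1.28 ± 0.753 and Oas3 at 0.383 ± 0.721 CPM per kb. Ifi44 (3.63 ± 1.41 CPM per kb) and Oas2 (3.00 ± 2.35), which had some of the largest fold changes below, ranked 38 and 41 of the 45.

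The first comparison set the transplanted monocytes against the transplanted microglia in mice without seizures (MLC against MG, saline, n = 3 in each). All 45 members had a positive log2 fold change, with a median of 1.22, where the median of all genes tested was 0 and 49.8% were positive. In 23 members every MLC library lay above every MG library, against 10.4% of all genes tested. At an adjusted p under 0.05 (edgeR), 1 member was higher, Bst2, and 0 were lower, while 0.779% of all genes tested were higher. At an unadjusted p under 0.05 there were 14 members. DESeq2 called 7 members, limma-voom 19, and a fit of only the 6 libraries of these groups 14, so the count depended on the tool. Genes called in all, in either direction, also rose, from 299 in the main fit to 665, 1683 and 872 in that order. The groups also differed in sex, as given above.

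Bst2, also known as tetherin, holds budding virus particles at the cell surface. It stood at 80.2, 142 and 90.3 CPM in MG after saline and at 512, 572 and 491 CPM in MLC, with no overlap. Its log2 fold change was 2.33 (SE 0.33, adjusted p = 0.000127). This call was kept in all 12 other fits and without each of the 6 libraries.

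The sensors had the largest median among 4 groups by role, at 2.08 over 11 members, against 1.61 over 16 antiviral effectors, 0.72 over 8 nuclear and other members and 0.62 over 10 members of signalling and ubiquitin-like modification. Ifi44 had a larger fold change than Bst2 with more spread, and Rtp4 a smaller one. Ifi44, an interferon-induced protein of the cytoplasm, had 1.63, 1.41 and 1.67 CPM in MG and 10.2, 54.7 and 9.27 CPM in MLC (log2 fold change 3.97, SE 1.07, adjusted p = 0.0646). Rtp4, a chaperone that helps receptors reach the cell surface, had 74.1, 106 and 44.2 CPM in MG and 246, 289 and 151 CPM in MLC (1.61, SE 0.42, adjusted p = 0.0574). Neither gene's libraries overlapped, and neither passed. MLC replicate 2 held the highest level of 34 of the 45 members in its group, and without MLC replicate 3 the count of called members was 2.

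**Figure D3:**
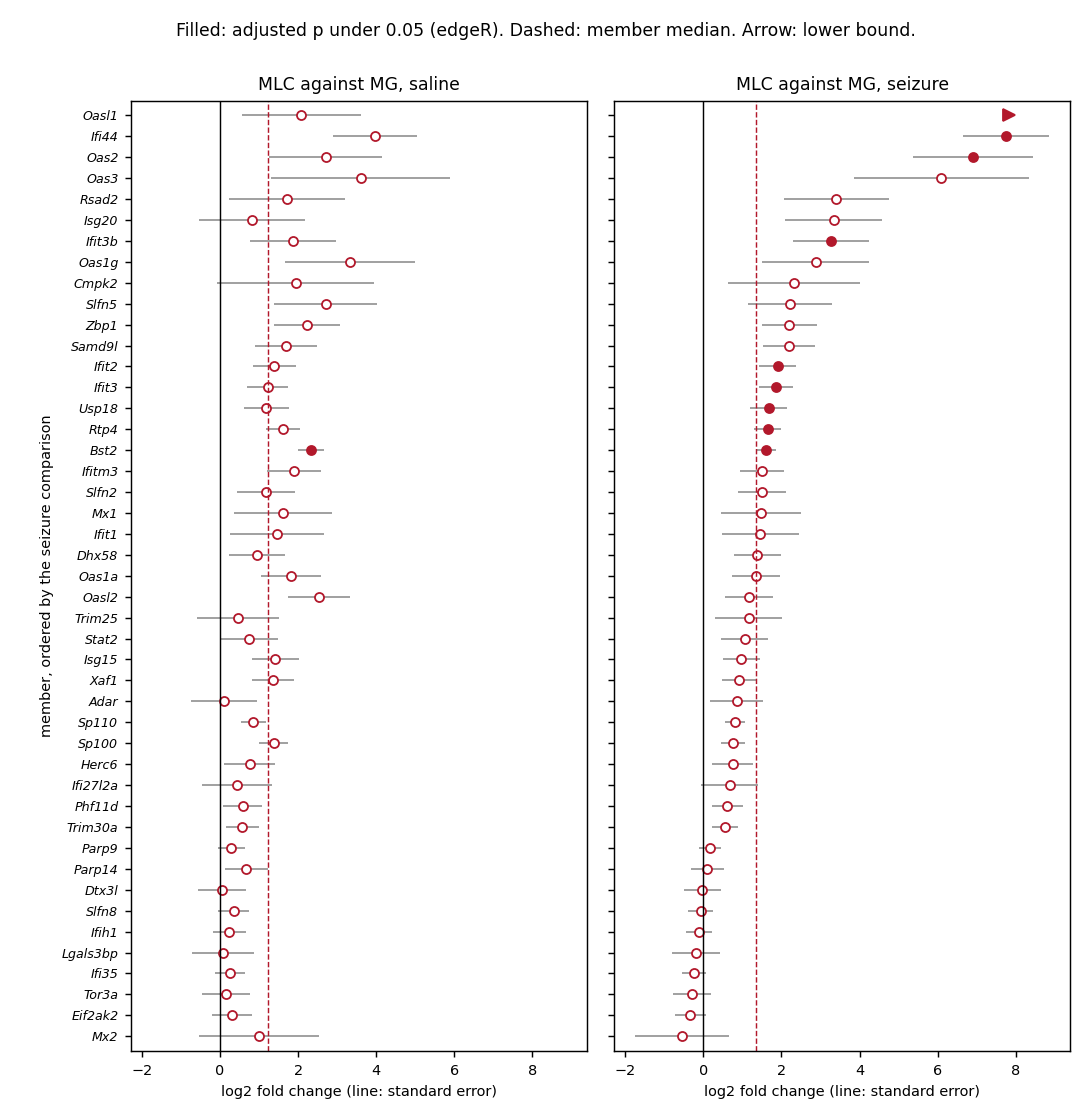
Log2 fold change of each member in MLC against MG after saline (left) and after seizure (right), with its standard error. Filled points passed at an adjusted p under 0.05, the dashed line is the median of the members (1.22 and 1.35), and the arrow is the lower bound of Oasl1, which had no count in MG after seizure.

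The same comparison after seizure (MLC against MG, n = 6 and 4) gave 9 higher members and 0 lower: Ifi44, Bst2, Oasl1, Rtp4, Oas2, Ifit3, Ifit2, Usp18 and Ifit3b. Of all genes tested, 2.51% were higher. The median log2 fold change of the members was 1.35, and 37 of the 45 were positive, where the median of all genes was 0. The median was also 1.35 with Oasl1 at its lower bound. In 13 members every MLC library lay above every MG library, against 2.44% of all genes. By role, 2 of 11 sensors, 5 of 16 effectors, 1 of 10 signalling members and 1 of 8 nuclear and other members passed. The medians by role were 1.38, 1.75, 0.651 and 0.718 in that order, so the effectors and not the sensors had the largest here. RLE scaling moved the median of all genes by 0.12, changed the share of higher among all called genes from 42.7% to 53.3%, and left 40 members positive. DESeq2 called 21 members and limma-voom 11, with 2568 and 1051 genes called in all, against 1109 in the main fit. Without MG replicate 1, in which the members were high, 15 were called, and without the 2 libraries coded 11b 7 were called.

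**Figure D4:**
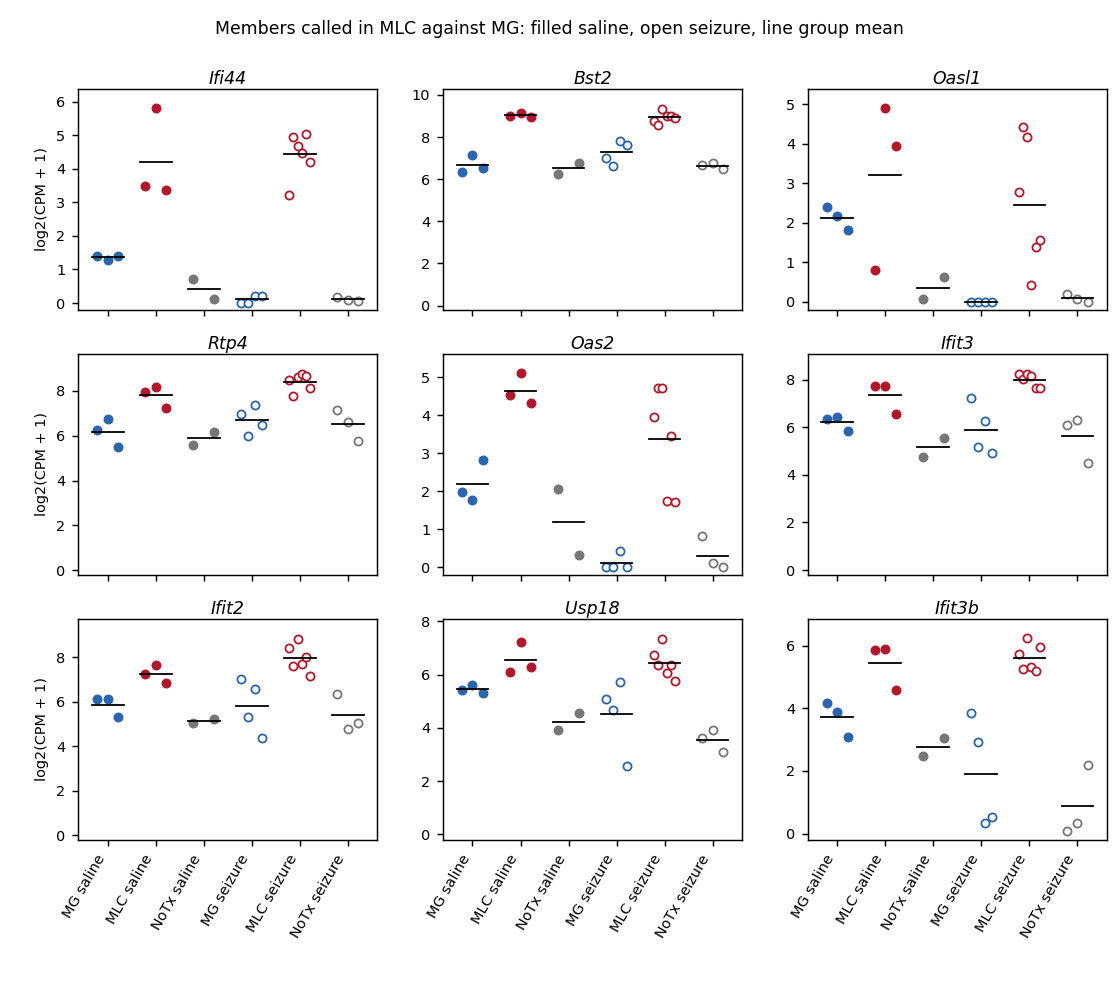
Level in each library, as log2(CPM + 1), of the 9 members called in MLC against MG, with the group mean of these log values as a line. Ifi44, Oas2 and Oasl1 were near 0 in MG and NoTx after seizure, whereas Bst2 and Rtp4 were well above 0 in every group and highest in MLC.

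Among the sensors, Oas2 makes short oligoadenylates in response to double-stranded RNA, which switch on the nuclease RNase L. Its counts gave 0, 0, 0.345 and 0 CPM in the 4 MG seizure libraries, and a lowest, median and highest value of 2.30, 12.3 and 25.6 CPM in MLC. All MLC libraries lay above all MG libraries, which held 13 counts in total. The log2 fold change was 6.91 (SE 1.53, adjusted p = 0.00741). After saline, Oas2 had been 2.96, 2.42 and 6.11 CPM in MG and 22.1, 33.5 and 19.0 CPM in MLC. Oasl1, a relative of the Oas enzymes known in mice to hold back the translation of Irf7, had no count in any MG seizure library. It ranged in MLC from 0.345 to 20.6 CPM with a median of 3.89. Its mean of 7.88 CPM in MLC was at least 229.9-fold higher than a floor of 3 counts over the 4 MG libraries together (adjusted p = 0.0033). MG had held 4.33, 3.51 and 2.53 CPM of Oasl1 after saline, and MLC 0.760, 28.9 and 14.3 CPM, which overlapped.

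The effectors that passed were the tethering protein Bst2, the chaperone Rtp4 and 3 Ifit genes, whose products bind viral RNA or one another. Bst2 stood at 128, 96.7, 227 and 199 CPM in MG after seizure and at 386 to 652 CPM in MLC with a median of 493 (log2 fold change 1.61, SE 0.26, adjusted p = 0.000332). Rtp4 had 123, 63.0, 166 and 89.1 CPM in MG and 215, 374 and 434 CPM as the lowest, median and highest in MLC (1.65, SE 0.35, adjusted p = 0.00473). For both genes the groups did not overlap.

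Ifit2 had 129.9, 38.3, 94.7 and 19.5 CPM in MG after seizure, and 140.2, 229.5 and 452 CPM as the lowest, median and highest in MLC (log2 fold change 1.90, SE 0.47, adjusted p = 0.0156). Ifit3 had 147, 35.4, 75.7 and 29.7 CPM in MG, and 203, 272 and 305 CPM in MLC (1.85, SE 0.43, adjusted p = 0.0111). In both genes MG replicate 1 was highest and replicate 4 lowest, and the 2 groups did not overlap. Ifit3b, a near copy of Ifit3, had 13.6, 6.60, 0.265 and 0.445 CPM in MG and 35.6, 45.5 and 74.1 CPM in MLC (3.28, SE 0.98, adjusted p = 0.0486). Ifit1, the fourth gene of this group of neighbours on chromosome 19, ranged from 0.604 to 65.3 CPM in MG and from 57.1 to 179 CPM in MLC and did not pass (1.46, SE 0.98, adjusted p = 0.38). The transcripts of Ifit3 and Ifit3b are 97.8% identical over 97.4% of Ifit3, and both had fractional counts in all 21 libraries, so their separate levels are uncertain.

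Usp18, a protease that removes the ubiquitin-like Isg15 and dampens the interferon receptor, had 33.2, 24.7, 52.3 and 4.96 CPM in MG after seizure. In MLC it had 53.3, 81.5 and 163 CPM as the lowest, median and highest (log2 fold change 1.67, SE 0.48, adjusted p = 0.0385), so that the lowest MLC library barely exceeded the highest of MG. Isg15 itself had 7.86, 10.1, 21.3 and 29.1 CPM in MG and 24.4 to 39.9 CPM in MLC, which overlapped, and did not pass (0.97, SE 0.47, adjusted p = 0.21). Ifi44 had 0, 0, 0.159 and 0.159 CPM in MG, 11 counts in all, and 8.34, 23.1 and 32.1 CPM as the lowest, median and highest in MLC. Its log2 fold change of 7.75 (SE 1.11, adjusted p = 7.18e-05) came with no overlap.

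Which of the 9 calls rested on single libraries or fits differed by gene. Ifi44, Bst2, Oas2 and Rtp4 passed in all 12 other fits and without each of the 10 libraries. Oasl1, Ifit2 and Ifit3 lost their calls without the 3 libraries poor in genes, and Ifit2 also without MG replicate 2. Usp18 passed in 9 of the 12 other fits. It lost its call with only the groups compared, without the libraries coded 11b and with limma-voom. It also lost its call without MG replicates 1, 2 or 4 or MLC replicates 1 or 3. Ifit3b lost it in 8 of the 12 fits, and without MG replicates 2, 3 or 4 or MLC replicates 1, 2, 3, 4 or 6.

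Of the 16 effectors, 11 did not pass. Mx1 and Mx2, dynamin-like proteins that trap viral components, had after seizure a log2 fold change of 1.47 (SE 1.02) for the first and -0.55 (SE 1.20) for the second. Rsad2, or viperin, which makes a chain-ending nucleotide, had 14.7, 0.498, 0.0531 and 0.0318 CPM in MG and 8.26 to 74.7 CPM in MLC (3.41, SE 1.34, adjusted p = 0.127). Its neighbour Cmpk2, which supplies a substrate of Rsad2, was likewise highest in MG replicate 1. The 8 members with negative values, Dtx3l, Slfn8, Ifih1, Lgals3bp, Ifi35, Tor3a, Eif2ak2 and Mx2, had log2 fold changes from -0.03 to -0.55, and the first 7 of these had -0.34 or nearer to 0.

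Set against endogenous microglia, MLC had 2 higher members after saline (n = 3 and 2) and 18 after seizure (n = 6 and 3), and 0 lower in both. These comparisons share the MLC libraries with those above, so they are not separate evidence. Of all genes tested, 0.445% were higher after saline and 2.55% after seizure. The median log2 fold changes of the members were 1.67 and 1.84 (all genes 0.078 and 0), with 43 and 41 of 45 positive. The second median was also 1.84 with Oas3, which had no count in NoTx after seizure, at its lower bound. Every MLC library lay above every NoTx library in 34 members after saline (15.3% of all genes) and in 20 after seizure (4.12%). Under RLE scaling 43 and 42 members were positive, and after seizure it moved the median of all genes by 0.13 and the share of higher among called genes from 41.4% to 49.8%. After saline the 2 members were Bst2 (log2 fold change 2.52, SE 0.39, adjusted p = 0.000598) and Ifi44 (6.08, SE 1.42, adjusted p = 0.0311). Bst2 lost its call with an offset for GC content (adjusted p = 0.13), and Ifi44 lost it in 5 of the 12 other fits. Without NoTx replicate 1 or 2, which left 1 NoTx library, the log2 fold change was 2.29 or 2.78 for Bst2 and 8.16 or 5.26 for Ifi44. The count was 1 without MLC replicate 2, and DESeq2 called 12 and limma-voom 21. Genes called in all were 237 in the main fit, 669 with DESeq2 and 1542 with limma-voom.

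After seizure, 5 of 11 sensors, 8 of 16 effectors, 2 of 10 signalling members and 3 of 8 nuclear and other members passed against NoTx. The 18 were Bst2, Zbp1, Ifi44, Usp18, Sp100, Rtp4, Ifit2, Ifit3, Oasl2, Ifit3b, Ifitm3, Slfn5, Isg15, Oas1a, Xaf1, Oasl1, Samd9l and Oas2. Zbp1, a sensor of left-handed nucleic acid that can trigger cell death, had 0.484, 0.0608 and 0.101 CPM in the 3 NoTx libraries and 6.48, 22.1 and 68.4 CPM as the lowest, median and highest in MLC. Its log2 fold change was 7.09 (SE 1.06, adjusted p = 0.00012), and the groups did not overlap. Ifi44 had 0.138, 0.0608 and 0.0505 CPM in NoTx (8.07, SE 1.30, adjusted p = 0.000288). Sp100, a protein of nuclear bodies, had 39.5, 40.3 and 36.1 CPM in NoTx and 78.9 to 165 CPM in MLC (1.83, SE 0.35, adjusted p = 0.00199).

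Ifitm3, which stops viruses from leaving endosomes, had 22.3, 5.88 and 21.5 CPM in NoTx after seizure and 53.3 to 171 CPM in MLC (log2 fold change 2.81, SE 0.67, adjusted p = 0.0134). After saline it had been 32.9 and 118 CPM in NoTx, the second of these in the library with the most neutrophil transcripts, 1660 CPM, and its part in that value was not tested. Slfn5, of the Schlafen family, had 0.277, 0.349 and 0.0505 CPM in NoTx after seizure and 8.19 to 24.4 CPM in MLC (5.99, SE 1.51, adjusted p = 0.0192). Isg15 had 7.40, 8.86 and 8.02 CPM in NoTx and 24.4 to 39.9 CPM in MLC (2.05, SE 0.56, adjusted p = 0.0298). In these 3 genes no NoTx seizure library reached the MLC range.

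Support for the NoTx calls again varied. Bst2, Zbp1, Ifi44, Usp18, Sp100, Rtp4, Ifit2 and Oasl2 passed in all 12 other fits and without each of the 9 seizure libraries. The count fell to 10 without NoTx replicate 2, to 13 without the libraries coded 11b, and was 21 without the 3 libraries poor in genes. NoTx replicate 2 decided the calls of Ifitm3, Oas2, Isg15, Oasl1, Samd9l, Oas1a, Slfn5 and Ifit3b. NoTx replicate 1 decided Isg15, Xaf1, Oasl1, Samd9l, Oas1a and Slfn5, and NoTx replicate 3 Oas2, Isg15, Xaf1, Oasl1, Slfn5 and Ifit3. On the MLC side, Oas2 lost its call without replicates 1, 2 or 3, Isg15 without replicate 4, Oasl1 without replicates 2 or 3, Samd9l without replicates 1, 3, 4 or 6, and Oas1a without replicate 3. Of the 12 other fits, Samd9l passed in 6, Isg15 and Xaf1 in 7, Oas2 in 8, Oasl1 and Oas1a in 9 and Ifitm3 in 11. Slfn5, Ifit3b and Ifit3 passed in all 12. Neutrophil markers in NoTx after seizure were at 6.57 to 820 CPM.

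Transplanted microglia were also set against endogenous microglia. In MG against NoTx, edgeR called 0 members after saline (n = 3 and 2) and 0 after seizure (n = 4 and 3), with 0.053% and 0.0742% of all genes called. Unadjusted p values were under 0.05 for 2 and 7 members. Of the other tools, DESeq2 called 0 and 3, and limma-voom 1 and 0. Genes called in all were 104 and 670 with DESeq2 and 420 and 24 with limma-voom. The member medians were 0.365 and 0.531 (all genes 0.023 and 0), with 36 and 34 of 45 positive, where 51% and 49% of all genes were. Zbp1 came nearest, at 8.45, 3.24, 5.76 and 6.29 CPM in MG after seizure against at most 0.484 in NoTx (log2 fold change 4.89, SE 0.98, adjusted p = 0.0624). Its groups did not overlap. Every MG library lay above every NoTx library in 16 of the 45 members after saline (18.5% of all genes tested) and in 2 after seizure (1.76%). Every MG library lay below every NoTx library in 3 members after saline (18.3%) and in 0 after seizure (2.09%). Without MG replicate 2, or without NoTx replicate 1, 1 member was called. Whether MLC differed from MG by more than MG from NoTx was not tested.

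**Figure D5:**
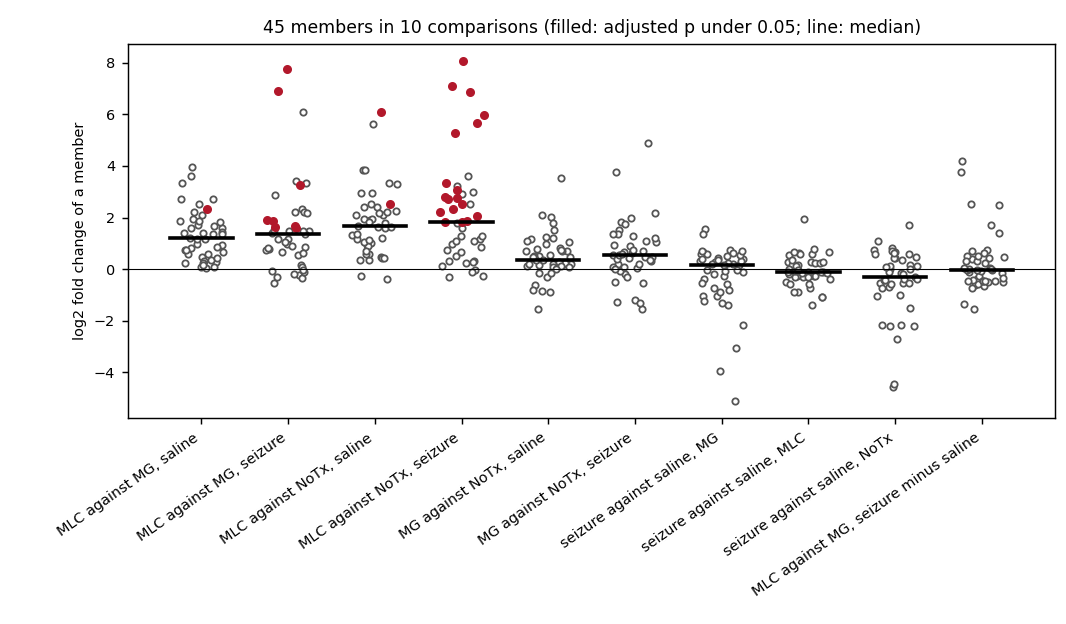
Log2 fold change of each member (points) in the 10 comparisons, with the median of the 45 as a line and calls at an adjusted p under 0.05 filled. Points lay mostly above 0 in the 4 comparisons of MLC with MG or NoTx, and around 0 in seizure against saline. Oasl1 and Oas3 are left out where a group held no count of them.

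Seizure was set against saline within each kind of cells. EdgeR called 0 members in MG (0.0371% of all genes called), 0 in MLC (0%) and 0 in NoTx (0.106%). Unadjusted p values were under 0.05 for 4, 0 and 4 members. DESeq2 called 3, 0 and 1 and limma-voom 3, 0 and 0. Genes called in all were 320, 139 and 229 with DESeq2 and 253, 96 and 89 with limma-voom. The member medians were 0.155, -0.097 and -0.309 (all genes -0.076, -0.063 and 0), and 23, 18 and 18 of 45 were positive. Each of these 3 medians took the other sign in some fits: it ran from -0.274 to 0.599 in MG, from -0.165 to 0.437 in MLC and from -0.576 to 0.227 in NoTx over the 12 other fits. The ends 0.437 and 0.227 came from the fit with the library code as a block. No code is shared between saline and seizure libraries, so in that fit this comparison depends on which codes serve as reference. With single libraries left out, the medians reached 0.228 in MLC and 0.0629 in NoTx. With Oasl1 and Oas3 at their bounds the medians for MG and NoTx did not change. Batch was the same as treatment, so nothing separates these.

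The members with the smallest p values in MG were those near 0 after seizure. Oasl1 went from 2.53 to 4.33 CPM after saline to no count in 4 libraries, a mean at least 100.8-fold lower than after saline by the floor of 3 counts over the group (adjusted p = 0.19). Ifi44 went from 1.41 to 1.67 CPM to at most 0.159 CPM (log2 fold change -3.93, SE 1.00, adjusted p = 0.29). Oas2 went from 2.42 to 6.11 CPM to at most 0.345 CPM (-5.11, SE 1.47, adjusted p = 0.39). None of the 3 overlapped between treatments. Every seizure library lay below every saline library in 4 of the 45 members, against 11.9% of all genes tested. In NoTx, Zbp1 had 2.88 and 6.50 CPM after saline and at most 0.484 CPM after seizure (-4.55, SE 1.01, adjusted p = 0.12). In MLC the nearest to passing was Stat2, a transcription factor of the pathway, with a log2 fold change of -1.06 (SE 0.62, adjusted p = 0.54).

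Whether the difference between MLC and MG changed with treatment was tested as an interaction. EdgeR called 0 members (0% of all genes called), with 3 at an unadjusted p under 0.05, DESeq2 called 2 and limma-voom 0. Genes called in all were 145 with DESeq2 and 8 with limma-voom. The member median was -0.0177, and from -0.0595 to 0.326 in the other fits, with 21 of 45 positive, or 28 under RLE scaling. Oasl1, without a count in MG after seizure, had the smallest p (adjusted p = 0.89). Ifi44 came next, with a change of 3.78 in the log2 difference (SE 1.31, adjusted p = 0.89), and Oas2 after it (4.21, SE 1.87, adjusted p = 0.89).

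The pathway that leads to these genes was described by 59 other genes in the table, of which 38 passed the filter. None of the 21 ligands did. Ifnb1, which encodes interferon beta, had 42 counts over 4 libraries, with at most 26 in 1 library, and 18 of the ligand genes had none in any library. Ligand transcripts were thus hardly detected at this depth. In MLC against MG, 0 of the 38 passed after saline (0.806% of all genes were lower), and 1 rose and 2 fell after seizure (3.37% of all genes were lower). The median log2 fold change of this list was -0.126 after saline and -0.105 after seizure.

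Irf9, the subunit of the complex that binds the motif, stood at 161 ± 36.1 CPM in MG and 227 ± 28.4 in MLC after saline (SD, n = 3), and 219 ± 76.2 (n = 4) and 188 ± 53.5 (n = 6) after seizure. Irf7, which drives the amplification of interferon, did not pass against MG, with a log2 fold change of 1.68 (SE 1.41) after saline and 0.93 (SE 1.12) after seizure. Socs1 and Socs3, which inhibit the receptor kinases, did not pass either.

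The receptor chain Ifnar1 had 165 ± 35.3 CPM in MG and 627 ± 121 in MLC after saline, and 78.5 ± 54.8 and 310 ± 248 after seizure. Neither log2 fold change, 1.93 (SE 0.87) and 1.98 (SE 0.71), passed. Ifnar2 passed only against NoTx after seizure among the 4 comparisons of MLC (1.69, SE 0.44, adjusted p = 0.0243). Jak1 and Tyk2 were not called in any of the 4. Samhd1, which degrades nucleotides needed by viruses, was higher in MLC after seizure against MG (1.35, SE 0.31, adjusted p = 0.0105). Tlr3, an endosomal sensor of double-stranded RNA, was lower, at 161, 119, 172 and 182 CPM in MG and 9.47 to 58.0 CPM in MLC (-2.16, SE 0.32, adjusted p = 0.000122), with no overlap. Of all genes tested, 2.96% had every MLC library below every MG library. Ifngr1, a receptor chain of interferon gamma, was also lower (-0.91, SE 0.25, adjusted p = 0.0338). Against NoTx, 0 genes of the list fell after saline (0.811% of all genes lower) and 3 fell after seizure (3.61% lower), which were Tlr3, Sting1 and Ifngr1. Samhd1 was higher against NoTx after seizure (1.53, SE 0.35, adjusted p = 0.0100).

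Plasmacytoid dendritic cells are the main makers of type I interferon in blood. Their 8 markers summed to 331 to 413 CPM in MLC and 274 to 319 CPM in MG after saline, and to 167 to 373 and 243 to 354 CPM after seizure. Nearly all of this was Tcf4, a widely expressed transcription factor, at 311, 400.1 and 332 CPM in MLC and 315, 268 and 276 CPM in MG after saline. Klk1 was at 0 in every library, and Spib in every library but 1 of MLC after seizure and 1 of NoTx after saline. Runx2 was higher in MLC after saline, at 14.1, 7.61 and 8.89 CPM against 0, 0.182 and 0 in MG. After seizure Runx2 ran from 0 to 8.31 CPM in MLC and was at 0 in every MG library. Atp2a1 after saline was at 1.61 to 2.10 CPM in MLC and at most 1.25 in MG. Tcf4, Ly6d, Ccr9 and Cox6a2 overlapped between MLC and MG after saline. The part of these cells in the results was not tested. Blood monocyte and dendritic cell markers summed to 3.65 to 28.0 CPM in MLC and to 173 and 1060 CPM in NoTx after saline. In sorted bulk samples, fewer cells of a type and less RNA per cell cannot be told apart.

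By position, 20 of the 43 members found in RefSeq lay in 7 groups of neighbours, each at most 8 places from the next in the order of protein-coding genes. Ifit2, Ifit3, Ifit3b and Ifit1 formed one, Oas2, Oas3, Oas1g and Oas1a another, and Oasl2 with Oasl1 the third. The others were Parp14, Dtx3l and Parp9, which lie side by side, Slfn5, Slfn8 and Slfn2, Sp110 and Sp100, and Rsad2 and Cmpk2. Calls did not cover whole groups of neighbours: in MLC against MG after seizure, Oas2 passed with 6.91, while Oas1a had 1.35 (SE 0.61) and did not pass. Oas1a and Oas1g are 97.6% identical over 98.7% of Oas1a, and Slfn8 and Slfn9 92.0% identical, so their separate counts are uncertain. Part of the transcript matches another gene in other members too. Examples are Isg15 with AC151275.1 (95.2% over 63.8% of Isg15), Ifitm3 with Gm6885 (91.6% over 52.5%) and Mx1 with Mx2 (94.8% over 27.2%). Exons of Dtx3l and Parp9, Usp18 and Gm44148, Oasl1 and Gm13822, and Slfn5 and Slfn5os, among others, overlap on opposite strands. Those of Rtp4 and Gm45338 overlap by 296 bases on the same strand. Strand use in counting is not stated, and reads of such pairs cannot be told apart. Bst2, Ifit2, Rsad2, Trim25, Cmpk2 and Ifi27l2a had whole counts in every library, within a tolerance of 0.0005.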

How the data were processed

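The table deposited by the authors held estimated counts per gene for the 21 libraries, made by aligning and counting reads, per the submitters' processing notes, with no normalization. Per the submitters' processing notes, the tools named were Trim Galore 0.6.7, cutadapt 3.4, STAR 2.7.10a, featureCounts of Subread 2.4.5, DESeq2 1.36.0, FastQC 0.11.9 and MultiQC 1.14, with the build GRCm39. Part of the values were fractional, and how reads matching several genes were divided is not stated. Per the labels' protocols, RNA came from sorted cells and libraries from a low-input kit. No molecular identifiers are named, so counts include PCR copies.

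Counts were rounded and fitted with the edgeR 4.0.16 quasi-likelihood test in R 4.3.3, using TMM scaling, the filterByExpr filter and 1 mean for each of 6 groups over all 21 libraries. P-values were adjusted by Benjamini-Hochberg over all 18867 genes tested within each of 10 comparisons, and genes with an adjusted p under 0.05 were called. Standard errors were the log2 fold change divided by the root of the F statistic. Other fits used DESeq2 1.42.0, limma 3.58.1 (voom with quality weights), RLE scaling, other filters, subsets of libraries and blocks. A GC offset was chosen after seeing the data. The scripts were tested on simulated data. Replicate numbers were not taken as pairs in the main fit. Correlations of deviations between libraries sharing a number ran from -0.307 to 0.446 (median 0.0547), and 8 of 17 exceeded 0.1. Between libraries not sharing a number they ran from -0.597 to 0.597 (median -0.015), and 17 of 58 exceeded 0.1. These values do not settle whether the numbers mark pairs. An equal number did not always go with an equal library code: MG and MLC seizure replicates 3 differed in code, as did their replicates 4. The labels call the libraries of a group biological replicates, without saying whether each came from a different animal, and p-values measure the spread between these libraries.

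The members and lists were chosen with earlier results of these data known. Any member could be named. Values in every library are given for the members called in MLC against MG, and pathway genes are named from a fixed list or where called in that comparison. The other genes and per-library values were chosen after their values were seen. One pathway gene is not reported here.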

Additional observations from a re-analysis of the deposited data

Results flagged for a closer look

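In 10 of 92 groups of 4 or 6 libraries, the highest or lowest library stood apart from the rest by Dixon's critical value. The 92 include Oasl1 in MG after seizure, which held no count and could not be checked. Chance alone gives about 1 in 20.

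In MG after seizure, replicate 1 was high for 3 members: Cmpk2 at 7.46 CPM (next library 0.0318), Rsad2 at 14.7 CPM (next 0.498) and Slfn5 at 12.3 CPM (next 0.249). Cmpk2 and Rsad2 are neighbours. Replicate 3 was high for Oas2, at 0.345 CPM where the other libraries were at 0, and for Oas1g, at 11.1 CPM (next 0.623). A single library above 0, as for Oas2, always passes this check whatever its level.

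In MLC after seizure, replicate 3 was high for Zbp1 at 68.4 CPM (next 26.5) and for Ifit1 at 179 CPM (next 89.9). Replicate 5 was high for Cmpk2 at 28.4 CPM (next 8.77), and replicate 1 for Oas3 at 12.8 CPM (next 3.19). Replicate 6 was low for Sp100, at 78.9 CPM (next 138).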

How the results depend on the processing

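Every called change of a member kept its direction in all alternatives run, as did the member medians in the 6 comparisons between kinds of cells. The medians of the 3 comparisons of seizure with saline and of the interaction, all near 0, did not: with each library left out they ran from -0.198 to 0.246 in MG, -0.229 to 0.228 in MLC, -0.393 to 0.0629 in NoTx and -0.155 to 0.271 for the interaction. In MLC against MG after saline, where 1 member was called, the count was 2 with RLE scaling, 2 without a low-count filter, 4 with a stricter filter (average log2 CPM from 1 upward), 14 with only the groups compared, 2 with the library code as a block, 4 without the 3 libraries poor in genes, 2 with the GC offset, 7 with DESeq2, 19 with limma-voom, and 1 to 2 with each library left out. After seizure (9 called) it was 21 with DESeq2 and 6 to 15 with each library left out. In MLC against NoTx after saline (2 called) it was 4 without a filter, 4 with the stricter filter, 8 with only the groups compared, 1 with the replicate block, 1 with the 11b libraries summed, 4 without the 3 libraries, 12 with DESeq2, 21 with limma-voom and 0 to 3 with each library left out. After seizure (18 called) it was 10 to 18 with each library left out.

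Where 0 were called, MG against NoTx gave 1 after saline with limma-voom, and after seizure 1 without a filter, 1 with the stricter filter, 3 with DESeq2 and 0 to 1 with each library left out. Seizure against saline gave 1 without a filter, 3 with DESeq2 and 3 with limma-voom in MG, and 1 without the 3 libraries and 1 with DESeq2 in NoTx. The interaction gave 2 with DESeq2. With the library code as a block, the member median was 0.437 for seizure against saline in MLC and 0.227 in NoTx. No code is shared between saline and seizure libraries, so those medians depend on which codes serve as reference and do not give the seizure response. The causes of the other differences were not tested.

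Replicate numbers as a block gave 1, 9, 1 and 16 members called in the comparisons of MLC with MG after saline and seizure and with NoTx after saline and seizure, and 0 in each of the other 6. Groups of 2 to 6 libraries and, in MG and NoTx after seizure, levels at or near 0 counts limited the precision for Oas2, Oas3, Oasl1 and Ifi44.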
